A study of Homo sapiens with 60 samples.

Results

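The 40 genes described here encode the machinery that makes ribosomal RNA and builds ribosomes in the nucleolus, together with RNA polymerase I and its factors. They were chosen by name, each symbol was matched to 1 Ensembl gene of the deposited count table, and a member had to have at least 10 counts in at least 3 libraries. All 40 of 40 passed, each in all 60 libraries, out of 60675 genes listed and 16093 genes tested. The lowest member count in any library was 281, for GAR1.

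The RNA came from HepG2, a long-established line of human liver cancer cells, in 20 groups of 3 libraries, each treated for 24 h. One group received vehicle, which is 0.1% DMSO in the sample labels and 2% in the description of the series. Another received wortmannin, a phosphoinositide 3-kinase inhibitor used as the positive control, at 10 µM. The remaining 18 groups received water extracts at 500, 100 or 20 µg/mL, made from Poria Cocos (Poria below), Atractylodis Rhizoma (Atractylodes), Glycyrrhizae Radix (licorice), Panax Ginseng (ginseng), Angelicae Gigantis Radix (angelica) or Paeoniae Radix (peony). The labels do not tell whether libraries sharing a group were grown as separate cultures, so p-values measure only the spread between libraries, which may be technical.

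A ribosome begins as a long precursor RNA that RNA polymerase I copies from the ribosomal DNA repeats. Small nucleolar ribonucleoproteins (snoRNPs) modify this RNA, the small subunit processome folds and cleaves it, and large subunit factors assemble the other part before both subunits leave the nucleus. Growth signals through phosphoinositide 3-kinase and mTOR, and the transcription factor MYC, are known regulators of these genes, and dividing liver cancer cells spend much of their energy on them.

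Each library held between 20.9 M and 33.4 M counts (median 26.1 M). Levels are given as CPM, the counts per 1 M of a library's total after trimmed-mean (TMM) scaling. A count of 3 amounts to 0.0899 CPM in the deepest and 0.144 CPM in the shallowest library, far below every member. The number that opens the sample descriptions, read here as a set, is shared by Poria and Atractylodes (set 2), by licorice and ginseng (set 3) and by angelica and peony (set 4). Vehicle carries A1 and wortmannin carries 1. The sample titles all read BatchA, vehicle and wortmannin included, and what the opening number marks is not given. There is 1 vehicle group, and the labels give DMSO for it alone, so wortmannin or an extract compared with vehicle cannot be told apart from a difference between sets or in DMSO. A dose trend compares 500 with 20 µg/mL of 1 extract within 1 set and uses no vehicle library. Among the 60 libraries, Poria 100 µg/mL replicate 1 stood apart, with a summed member level of 7249 CPM against 6518 and 6507 CPM in the other libraries of its group and the highest share of mitochondrially encoded counts, 15.2%. It was also the shallowest library, at 20.9 M counts. Of 8 hepatocyte markers all 8 were tested, and their summed group means ran from 48800 CPM with licorice at 500 µg/mL to 67000 CPM with wortmannin, against 59200 CPM in vehicle. Of 8 blood cell markers 5 were tested, with a summed level of 1400 CPM in vehicle, 2260 CPM with wortmannin, 2560 CPM with Poria and 1650 CPM with licorice at 500 µg/mL. LYZ, the lysozyme gene, made up most of it, at 1270, 1420 and 1340 CPM in vehicle and 2160, 2700 and 2590 CPM with Poria at 500 µg/mL, while PTPRC was at 0 in all libraries. Of 8 fibroblast and stellate markers 2 were tested, with a summed level between 36.2 and 74.5 CPM. The part of these shifts in the results was not tested.

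In vehicle, levels per length of exon spanned a wide range. The nucleolar chaperone NPM1 was the highest at 359 CPM per kilobase, followed by nucleolin (NCL) at 196 and the H/ACA snoRNP protein NOP10 at 183 CPM per kilobase. The box C/D snoRNP scaffold NOP56 stood at 90.4 and the rRNA 2'-O-methyltransferase fibrillarin (FBL) at 62.3 CPM per kilobase. The lowest were POLR1C, a subunit shared by RNA polymerases I and III, at 6.01, the large subunit factor NOC3L at 5.75 and the processome protein UTP15 at 5.27 CPM per kilobase. Because NPM1 and NCL carry a large part of the summed level, the sums below are also given as a median over the 40 members, in which each gene counts once. NPM1 and RRN3 have near-identical pseudogene copies, so their counts depend on how the authors' software shared reads among the copies.

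Several members also carry small nucleolar RNA genes inside their own gene bounds on the same strand. By GENCODE v29, 6 of 40 members (15%) do so, against 142 of 12861 tested protein-coding genes (1.1%). They are NOP56 with 5 such genes, NOP58, WDR43, GNL3 and NCL with 3 each, and DKC1, the pseudouridine synthase dyskerin, with 2. Members lay on many chromosomes, with 7 on chromosome 2 and 5 on chromosome 5.

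The RefSeq promoter table (GRCh38.p14), which covers 250 bases before to 50 after a gene's start, held 35 of the 40 members. The sequence CACGTG, the E-box motif bound by MYC and other factors of its class, reads the same on both strands and was searched as these letters alone. It occurred in 12 of 35 member promoters (34.3%) and in 15 of 42 promoters of other ribosome biogenesis factors (35.7%). It occurred in 1036 of 10321 promoters of tested protein-coding genes (10%), in 2548 of all 35116 promoters listed (7.26%) and in 0 of 25 promoters of cytosolic ribosomal proteins. The 12 were FBL, NAT10, NOC3L, NOP10, NOP14, NOP2, PES1, RRP9, UTP18, UTP20, UTP4 and WDR43. A match of letters is a description and not evidence of binding. For 5 of them a window of 100 bases that lies before the RefSeq start is printed, because in these members a whole motif lies upstream of the start. In RRP9 the motif spans the start, and UTP18 and NOP10 each hold another copy outside the window. The motif is in capitals, and its first base lies 15 bases before the start in NAT10, 11 in NOP10, 89 in UTP18, 10 in UTP20 and 16 in UTP4. The windows are NAT10 at chr11:34105529-34105628 (+), NOP10 at chr15:34343137-34343236 (-), UTP18 at chr17:51260410-51260509 (+), UTP20 at chr12:101280005-101280104 (+) and UTP4 at chr16:69132549-69132648 (+), each written 5′ to 3′ on its gene's strand.
NAT10: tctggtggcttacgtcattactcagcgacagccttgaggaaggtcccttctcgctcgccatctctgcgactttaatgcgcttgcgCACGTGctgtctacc
NOP10: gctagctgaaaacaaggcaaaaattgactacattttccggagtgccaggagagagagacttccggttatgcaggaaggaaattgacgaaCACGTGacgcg
UTP18: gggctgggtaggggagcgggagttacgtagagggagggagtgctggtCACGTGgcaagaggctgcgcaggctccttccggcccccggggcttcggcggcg
UTP20: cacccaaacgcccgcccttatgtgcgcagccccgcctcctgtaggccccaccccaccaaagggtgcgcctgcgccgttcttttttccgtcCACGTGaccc
UTP4: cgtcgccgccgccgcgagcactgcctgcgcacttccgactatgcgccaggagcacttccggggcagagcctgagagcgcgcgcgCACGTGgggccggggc

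With wortmannin, which blocks signalling through phosphoinositide 3-kinase, nearly all of the machinery was lower than in vehicle. Of the 40 members 38 fell, 1 rose and 1 did not pass the threshold (edgeR's quasi-likelihood test, Benjamini-Hochberg adjusted over all genes tested, threshold 0.05), while 46.3% of all genes tested passed, 22.4% upward and 24% downward. The median log2 change of the members was -0.43, against 0.01 over all genes tested, and the members spanned -0.67 to 0.21. The summed member level was 6172 ± 144.1 CPM in vehicle and 4579 ± 101.6 CPM with wortmannin (SD, n = 3 each). Without NPM1 and NCL the sums were 3439 ± 81.8 and 2565 ± 31.5 CPM. In each library the median member stood between -0.47 and -0.41 on the log2 scale relative to the vehicle mean with wortmannin, and between -0.02 and 0.04 in vehicle. All 3 wortmannin libraries were below all 3 vehicle libraries for 38 members, and 27.8% of all genes tested were lower in this way.

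The 4 largest falls were those of the snoRNP proteins GAR1, NOP56, NOP58 and DKC1, while the other 3 snoRNP members, FBL, NHP2 (-0.31) and NOP10, changed less. NOP56 (chr20:2652145-2658393, +) stood at 481, 502 and 480 CPM in the vehicle libraries and at 301, 324 and 304 CPM with wortmannin. Its groups lay far apart, and it fell by 0.65 ± 0.0489 (log2, SE; adjusted p = 3.31e-16). Its partner NOP58, also a box C/D scaffold, went from 113, 127 and 114 CPM to 71.5, 83 and 74 CPM, a fall of 0.63 ± 0.0753. FBL, the enzyme of the same particle, was measured at 132, 141 and 132 CPM in vehicle and at 104, 99.9 and 100 CPM with wortmannin, and it fell by 0.42 ± 0.0461. All 3 of 3 box C/D proteins thus fell, with no overlap between groups.

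Among the 4 H/ACA snoRNP proteins, which guide pseudouridine formation and also hold telomerase RNA, 3 fell. GAR1 (chr4:109815510-109824740, +) had the largest fall of all members, from 18, 22 and 20.2 CPM in vehicle to 11.3, 13.9 and 12.4 CPM, or -0.67 ± 0.0921 on the log2 scale (adjusted p = 2.17e-08). DKC1 went from 111, 114 and 112 CPM to 70.8, 77.4 and 71.4 CPM, a fall of 0.62 ± 0.042. NOP10 was the member that did not pass, at 96, 108 and 99.5 CPM in vehicle and 78.1, 110 and 84.6 CPM with wortmannin. Its log2 difference was -0.15 ± 0.09 (adjusted p = 0.168), and the highest wortmannin library was above all 3 vehicle libraries.

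All 11 of 11 small subunit processome members and all 12 of 12 large subunit assembly members fell, with medians of -0.42 and -0.5. In the processome group UTP20, a large scaffold protein, changed by -0.56, WDR43 by -0.53 and UTP15 by -0.19. In the large subunit group the spread ran from -0.6 for NOP16 to -0.16 for WDR12, which forms the PeBoW complex with PES1 and BOP1. Those 2 partners fell by more, PES1 by 0.5 and BOP1 by 0.51. The abundant nucleolar proteins followed: NCL, which binds nascent rRNA, was at 1280, 1430 and 1370 CPM in vehicle and at 892, 975 and 895 CPM with wortmannin. NPM1 was at 1380, 1370 and 1370 CPM and at 1080, 1120 and 1080 CPM, a smaller fall of 0.33 ± 0.0391 against 0.56 ± 0.0699 for NCL. Neither gene's groups overlapped.

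RNA polymerase I and its factors moved less as a group, with a median of -0.26, 6 falls and 1 rise among 7. The catalytic subunit POLR1A was at 160, 164 and 166 CPM in vehicle and 144, 135 and 134 CPM with wortmannin, a log2 change of -0.25 ± 0.0534. POLR1B, the second largest subunit, was at 88.1, 83.8 and 82.9 CPM and at 70.5, 70.4 and 71.9 CPM, a change of -0.26 ± 0.0364. Both genes fell without overlap of the groups. UBTF, the factor that keeps ribosomal DNA open, was at 101, 102 and 98.3 CPM in vehicle and at 75.8, 69.9 and 72.2 CPM with wortmannin, a change of -0.47 ± 0.0413. RRN3, the initiation factor that responds to growth signals, was at 90, 87.8 and 89.5 CPM and at 75.5, 79.2 and 80.3 CPM, a change of -0.19 ± 0.0473. The fall of UBTF was larger than those of POLR1A and POLR1B, though the difference between genes was not tested. POLR1D (chr13:27620742-27744237, +), a small subunit shared with RNA polymerase III, was the 1 member that rose, from 81.6, 81.8 and 80.2 CPM to 94.9, 88.5 and 98.9 CPM, or by 0.21 ± 0.0491 (adjusted p = 0.000307).

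**Figure D1:**
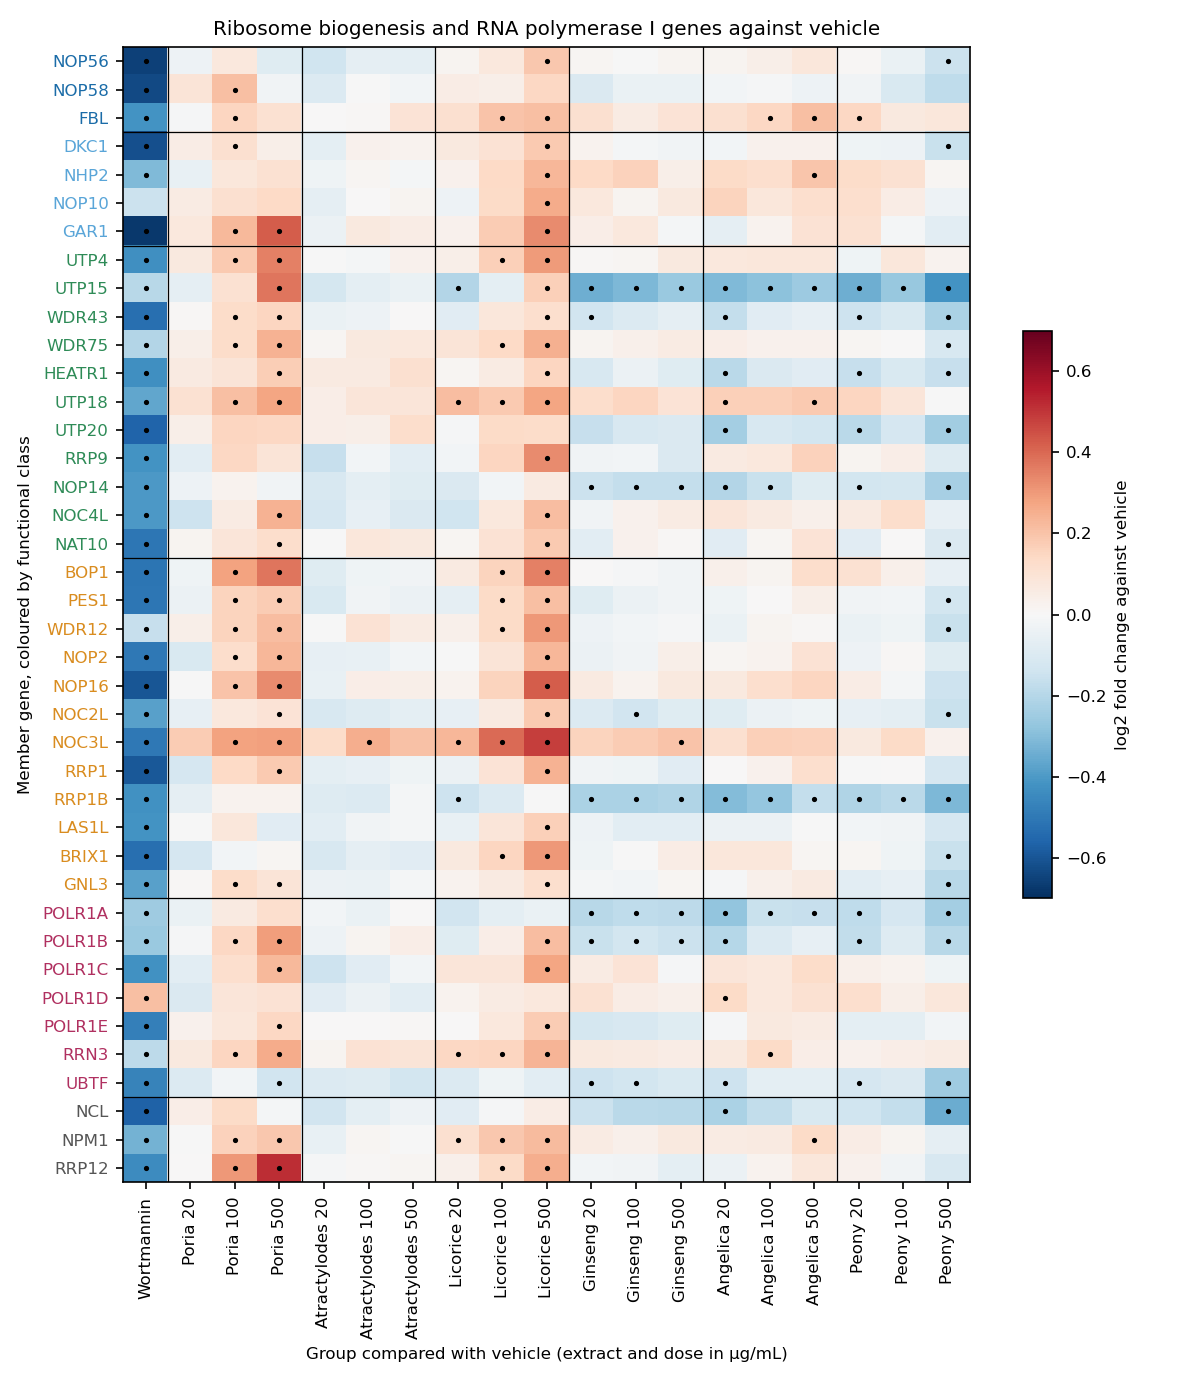
Log2 fold change against vehicle of the 40 members (vertical axis, coloured and ruled by functional class) in wortmannin and 18 extract groups (horizontal axis, doses in µg/mL), with a dot where the adjusted p is under 0.05. The wortmannin column is blue for all members but POLR1D, Poria and licorice turn red towards 500 µg/mL, and UTP15 and RRP1B are blue in most groups of licorice, ginseng, angelica and peony.

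Genes of the same process outside the 40 moved with them under wortmannin. Of 51 other ribosome biogenesis factors 46 fell and 1, NMD3, rose, with a median of -0.36. The largest falls were those of TCOF1, the nucleolar protein treacle (-1.04), MRTO4 (-0.75) and PNO1 (-0.69). Among 8 other RNA polymerase I genes 6 fell, led by POLR1G at -1.01, from 28.5, 31 and 28.7 CPM in vehicle to 14.7, 14.7 and 14.4 CPM. Of 12 RNA polymerase III genes 5 fell and 1 rose, and POLR3G changed by -0.87. The 35 cytosolic ribosomal proteins changed less, with a median of -0.13 and 3 falls, RPSA (-0.3), RPL6 (-0.2) and RPS2 (-0.15). MYC itself did not pass, at 133, 126 and 128 CPM in vehicle and 130, 130 and 129 CPM with wortmannin, a log2 difference of 0.01. All 10 of 10 proliferation genes fell, with a median of -1.14, and their summed level was 1180 CPM with wortmannin against 2600 CPM in vehicle. The part of fewer dividing cells in the fall of the members was not tested, and in bulk samples fewer cells of a kind and less RNA per cell cannot be told apart. These lists were chosen with earlier results of these data known.

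Licorice and Poria raised the members with dose, in separate sets and with no library in common. With licorice, 29 of 40 rose and 0 fell from 20 to 500 µg/mL, with a median of 0.19, while 21.3% of all genes tested passed and their median was 0. With Poria, 25 of 40 rose and 0 fell, with a median of 0.16, while 43.5% of all genes tested passed and their median was -0.01. Of all genes 11% rose and 10.3% fell with licorice, and 22.3% rose and 21.2% fell with Poria. The size was small: the largest rise was RRP12 with Poria at 1.43-fold and NOP16 with licorice at 1.32-fold.

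**Figure D2:**
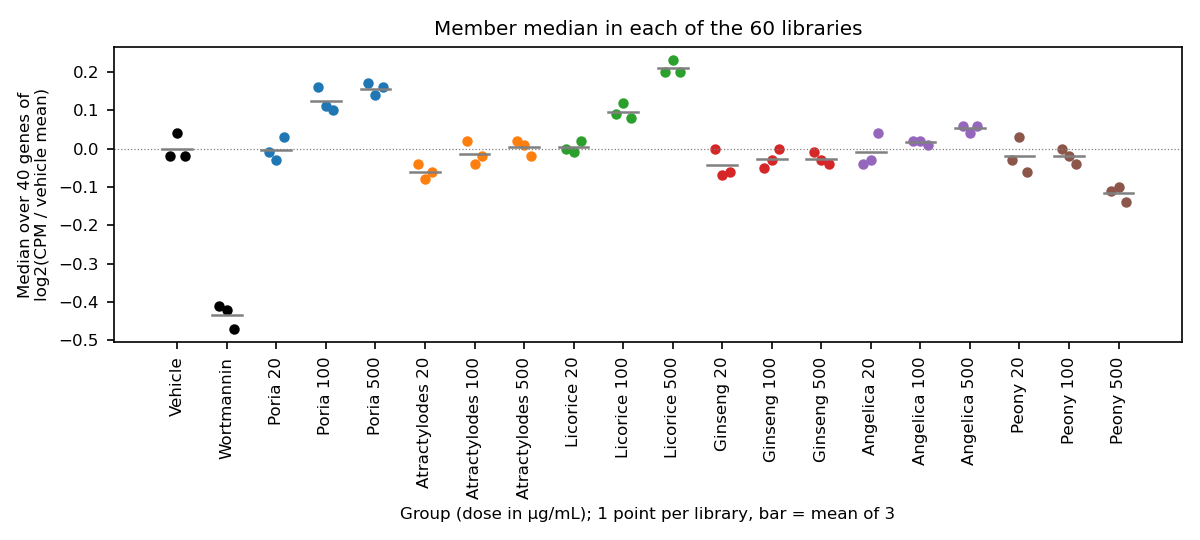
Median over the 40 members of log2(CPM divided by the vehicle mean) in each of the 60 libraries (vertical axis), by group (horizontal axis, doses in µg/mL), with 1 point per library and a bar at the mean of 3. Wortmannin lies between -0.47 and -0.41, licorice at 500 µg/mL between 0.2 and 0.23, Poria at 500 µg/mL between 0.14 and 0.17, and peony at 500 µg/mL between -0.14 and -0.1, outside the vehicle range of -0.02 to 0.04.

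With licorice the rise was spread over the classes. All 4 of 4 H/ACA proteins and 11 of 12 large subunit factors passed, and so did 8 of 11 processome members, 3 of 7 RNA polymerase I members, 2 of 3 abundant or export proteins and 1 of 3 box C/D proteins. Group means rose at each step of dose for 35 of 40 members. The summed level was 6213 ± 78.4 CPM at 20, 6567 ± 95 at 100 and 6911 ± 76.2 CPM at 500 µg/mL (SD, n = 3 each). For 33 members all 3 libraries at 500 µg/mL were above all 3 at 20 µg/mL, and 17.5% of all genes tested were higher in this way.

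NOP16 (chr5:176383938-176388975, -), a large subunit factor, had the largest licorice trend. It stood at 38.4, 40.3 and 41.4 CPM at 20 µg/mL, at 42.7, 45 and 44.2 CPM at 100 and at 52.5, 52.3 and 53.7 CPM at 500 µg/mL, and rose by 0.4 ± 0.0568 (log2, SE; adjusted p = 2.51e-07). Each dose lay above the one before it in all libraries. UTP15 (chr5:73565443-73583377, +) went from 29.8, 28.5 and 28.4 CPM at 20 µg/mL through 32.2, 31.7 and 31.1 CPM to 39.2, 34.8 and 37.8 CPM, a rise of 0.37 ± 0.0556. NOC4L, which works in the processome with NOP14, went from 18.3, 17.6 and 17.8 CPM to 24.6, 22.8 and 21.4 CPM, or by 0.36 ± 0.082. RRP9, a U3 snoRNP protein, went from 32.2, 30.5 and 34.7 CPM to 40.8, 44.9 and 38.8 CPM, or by 0.35 ± 0.0642. In these 3 genes the lowest and highest doses did not overlap.

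POLR1B (chr2:112541915-112577150, +) was the RNA polymerase I member with the firmest licorice trend, from 85.4, 76.3 and 78.2 CPM at 20 µg/mL to 96.8, 99.2 and 99.7 CPM at 500 µg/mL (0.3 ± 0.0361, adjusted p = 4.71e-09). The catalytic subunit POLR1A did not pass, at 159, 139 and 149 CPM and at 161, 160 and 156 CPM (0.09, adjusted p = 0.236). UBTF was nearly level, at 95.7, 93.5 and 93.4 CPM and at 96.7, 94.6 and 95.3 CPM (0.02), and RRN3 differed by 0.09 (adjusted p = 0.187). RRN3 ran from 94.1 to 105 CPM at 20 µg/mL and from 98.2 to 111 CPM at 500 µg/mL, with overlapping groups.

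NOP56 rose from 475, 502 and 507 CPM to 539, 567 and 562 CPM with licorice (0.17 ± 0.0485, adjusted p = 0.00808). FBL, at 139, 150 and 149 CPM and at 148, 162 and 158 CPM, did not pass (0.1, adjusted p = 0.132). DKC1, at 118, 119 and 115 CPM and at 123, 132 and 127 CPM, passed narrowly (0.11, adjusted p = 0.0381). NPM1, at 1470, 1590 and 1410 CPM and at 1570, 1630 and 1620 CPM, also passed narrowly (0.11, adjusted p = 0.0367), with overlapping groups, while NCL, at 1330, 1260 and 1260 CPM and at 1430, 1430 and 1370 CPM, did not (0.13, adjusted p = 0.185). Leaving out either library 2 or 3 at 500 µg/mL, or library 1 or 3 at 20 µg/mL, ended the calls of DKC1 and NPM1, at adjusted p of 0.0692 to 0.203 for DKC1 and 0.0835 to 0.265 for NPM1. NOP56 did not pass without library 1 at 20 µg/mL (adjusted p = 0.0636). NCL, whose groups did not overlap, passed with no filter (0.0389), on the compared groups alone (0.0366) or by a regression on log dose (0.0376). In the same fits NPM1 (0.122, 0.122 and 0.124) and DKC1 (0.15, 0.0682 and 0.0701) did not pass.

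With Poria the counts varied among the classes, a difference that was not tested. Among processome members 8 of 11 rose, among large subunit factors 8 of 12, and among RNA polymerase I members 5 of 7. Of the box C/D proteins 1 of 3 passed, with a class median of -0.05, and of the H/ACA proteins 1 of 4, with a median of 0.12. That 1 was GAR1, at 21.9, 20.1 and 21.5 CPM at 20 µg/mL and at 24, 26.6 and 30.4 CPM at 500 µg/mL (0.35 ± 0.0858). RRP12 (chr10:97356358-97426076, -), which helps export both subunits, had the largest trend of all members, from 62.6, 61.1 and 63.7 CPM at 20 µg/mL through 76.5, 75.9 and 77.9 CPM at 100 to 90.7, 89.4 and 87.7 CPM at 500 µg/mL (0.52 ± 0.0419, adjusted p = 8.43e-15). Its 3 doses did not overlap. UTP15 went from 32.8, 31.7 and 31 CPM to 44.4, 42.2 and 42.9 CPM (0.44 ± 0.055), and BOP1 from 50, 46.8 and 47.7 CPM to 63.5, 65 and 63.3 CPM (0.41 ± 0.0557). NOC4L followed with 16.1, 18.8 and 18.7 CPM and 22.6, 22.6 and 24.9 CPM (0.38 ± 0.0828). Lowest and highest dose lay apart in each of these genes.

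In the polymerase, POLR1B rose with Poria from 85, 83.8 and 84.1 CPM to 106, 102 and 104 CPM (0.3 ± 0.0361, adjusted p = 7.7e-10). POLR1A, at 164, 161 and 149 CPM and at 185, 173 and 174 CPM, passed with a smaller value (0.16, adjusted p = 0.0102), which was lost without library 1 at 500 µg/mL (0.0878) or library 3 at 20 µg/mL (0.0846). RRN3, at 92.7, 90.6 and 96.7 CPM and at 106, 107 and 107 CPM, rose by 0.19 ± 0.047 without overlap. UBTF was at 92.1, 97.6 and 92.6 CPM and at 98.2, 85.4 and 91.1 CPM, and did not pass (-0.04).

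The box C/D scaffolds and nucleolin did not rise with Poria. NOP56 was at 484, 445 and 500 CPM at 20 µg/mL and at 455, 455 and 468 CPM at 500 µg/mL (-0.05, adjusted p = 0.411). NOP58 was at 136, 112 and 130 CPM and at 116, 120 and 113 CPM (-0.11, adjusted p = 0.232). NCL was at 1500, 1300 and 1410 CPM and at 1390, 1340 and 1320 CPM (-0.06, adjusted p = 0.555). All 3 genes had overlapping groups. DKC1, at 117, 111 and 122 CPM and at 111, 118 and 117 CPM, was level (-0.01). FBL, at 133, 130 and 140 CPM and at 145, 140 and 151 CPM, passed narrowly (0.11, adjusted p = 0.0407) and not without any of 4 of the 6 libraries (adjusted p 0.0883 to 0.191): libraries 1 and 3 at 500 µg/mL and 1 and 2 at 20 µg/mL. NPM1 rose from 1360, 1340 and 1420 CPM to 1540, 1570 and 1600 CPM (0.19 ± 0.039).

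**Figure D3:**
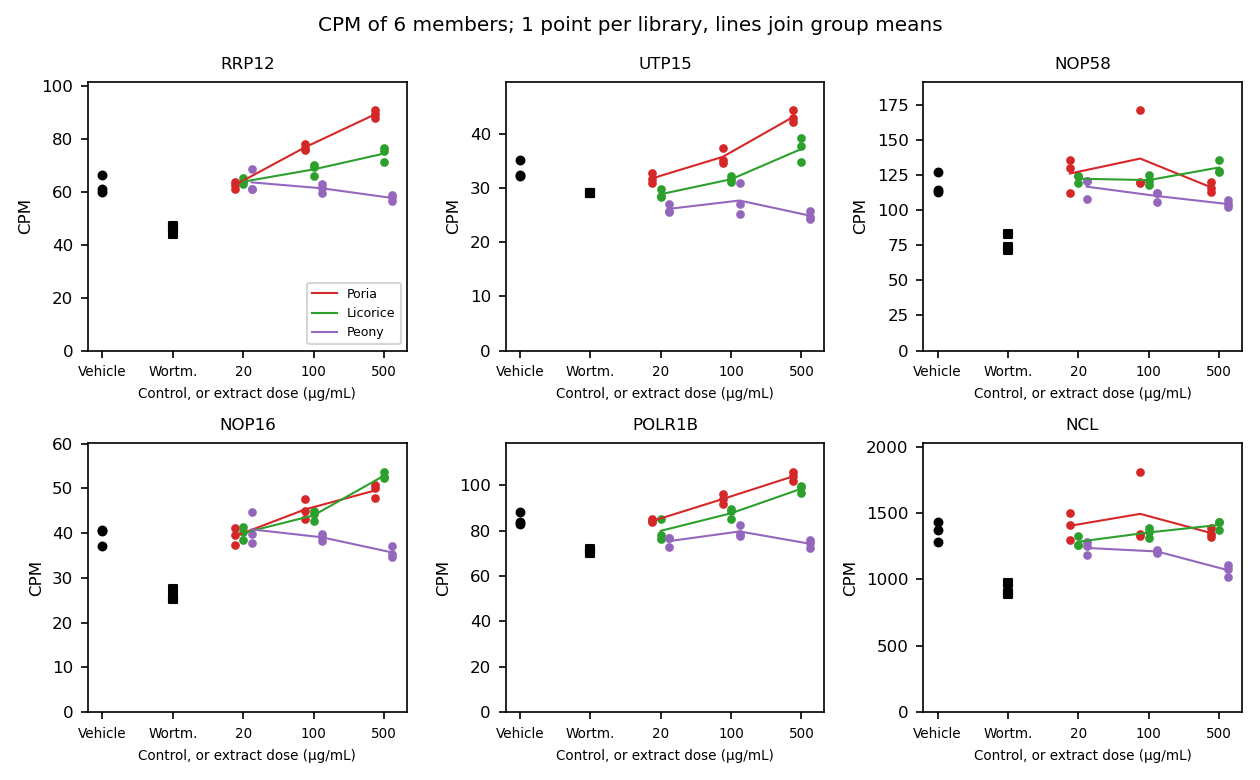
CPM (vertical axes, from 0) of RRP12, UTP15, NOP58, NOP16, POLR1B and NCL in vehicle, wortmannin (Wortm.) and 3 extracts at 20, 100 and 500 µg/mL, with 1 point per library and lines through group means. RRP12 and UTP15 climb with Poria, NOP16 with licorice and POLR1B with both, while the highest NOP58 and NCL points are those of Poria 100 µg/mL replicate 1, at 171 and 1810 CPM.

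The Poria steps gave unlike counts, and the difference between the steps was not tested. From 20 to 100 µg/mL 18 members rose and 0 fell, with 18.8% of all genes tested passing (9.84% higher and 8.99% lower). From 100 to 500 µg/mL 5 rose and 4 fell, with 19.3% passing (10.9% and 8.34%), so these counts were near the shares of all genes. The 5 were UTP15 (0.27), RRP12 (0.22), UTP4 (0.17), POLR1B (0.15) and WDR75 (0.11), and the 4 were NOP58 (-0.23), NOP56 (-0.16), LAS1L (-0.16) and UBTF (-0.11). Without replicate 1 at 100 µg/mL 6 members rose, GAR1 (0.28) being added, and 0 fell. NOP58 then differed by -0.04 (adjusted p = 0.737) and NOP56 by -0.08 (0.301), while LAS1L, at -0.12 (0.103), and UBTF, at -0.1 (0.142), lost the call with less change in size. The first step then had 11 rises, and 10 without replicate 2 at 20 µg/mL. The dose trend gives the 100 µg/mL group no weight and had 25 calls without its replicate 1. On total counts the steps had 9 rises and 0 falls, and 4 rises and 5 falls. With licorice 3 members rose from 20 to 100 µg/mL (PES1, WDR43 and POLR1B, 1.52% of all genes passing, 0.671% higher and 0.845% lower) and 10 from 100 to 500 µg/mL (9.12% passing, 4.32% and 4.79%). The 3 became 1 without any of the licorice 100 µg/mL libraries or licorice 20 µg/mL replicate 2. The 10 became 4 without licorice 100 µg/mL replicate 1, 6 without its replicate 3 and 5 without licorice 500 µg/mL replicate 2.

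The Poria result also depended on scaling. The TMM factors ran from 0.926 to 1.03 over all libraries. On plain total counts, without them, the median of all genes shifted by -0.11 on the log2 scale for Poria at 500 µg/mL against vehicle and by -0.08 in its trend. Members called in the trend were then 16 higher and 4 lower, with a median of 0.08, and all genes called were 2496 higher and 4743 lower, against 3586 and 3409 with TMM. NOP56 (-0.13, adjusted p = 0.0282) and UBTF (-0.12, adjusted p = 0.0117) were among the lower calls on total counts. The rises of RRN3 (0.12, adjusted p = 0.0662), POLR1A (0.09, 0.177) and FBL (0.03, 0.599) no longer passed. The licorice trend had 30 higher and 0 lower on total counts, and wortmannin 1 higher and 38 lower.

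Against vehicle the same pattern held at the top doses. Licorice at 500 µg/mL had 32 members higher and 0 lower (median 0.21), with 32.4% of all genes tested passing (16.7% higher and 15.7% lower). Poria at 500 µg/mL had 24 higher and 1, UBTF at -0.13, lower (median 0.15), with 47.6% passing (23.9% and 23.7%), and on total counts 13 higher and 4 lower. Without Poria 500 µg/mL replicate 2 UBTF differed by -0.08 and did not pass (adjusted p = 0.142). NOC3L was the largest licorice difference, at 26.7, 26.7 and 23.6 CPM in vehicle and 35.7, 34.8 and 37.2 CPM at 500 µg/mL (0.49 ± 0.0607). Licorice at 100 µg/mL had 12 higher (16.5% of all genes passing, 8.76% higher and 7.7% lower), or 6 without vehicle replicate 3 and 7 without licorice 100 µg/mL replicate 2 or 3. At 20 µg/mL 4 were higher and 2 lower (11.2%, 5.89% higher and 5.28% lower), between 1 and 7 in all on leaving out single libraries, the lowest without vehicle replicate 3 or licorice 20 µg/mL replicate 2 and next, at 2, without vehicle replicate 2. Poria at 100 µg/mL had 19 higher (30.5%, 15.1% higher and 15.3% lower), or 12 without its replicate 1 and 4 on total counts. At 20 µg/mL 0 passed by edgeR or DESeq2 (3.8%, 2.09% higher and 1.71% lower), with 5 at an unadjusted p under 0.05. There 1 passed on total counts and 1 without Poria 20 µg/mL replicate 1.

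**Figure D4:**
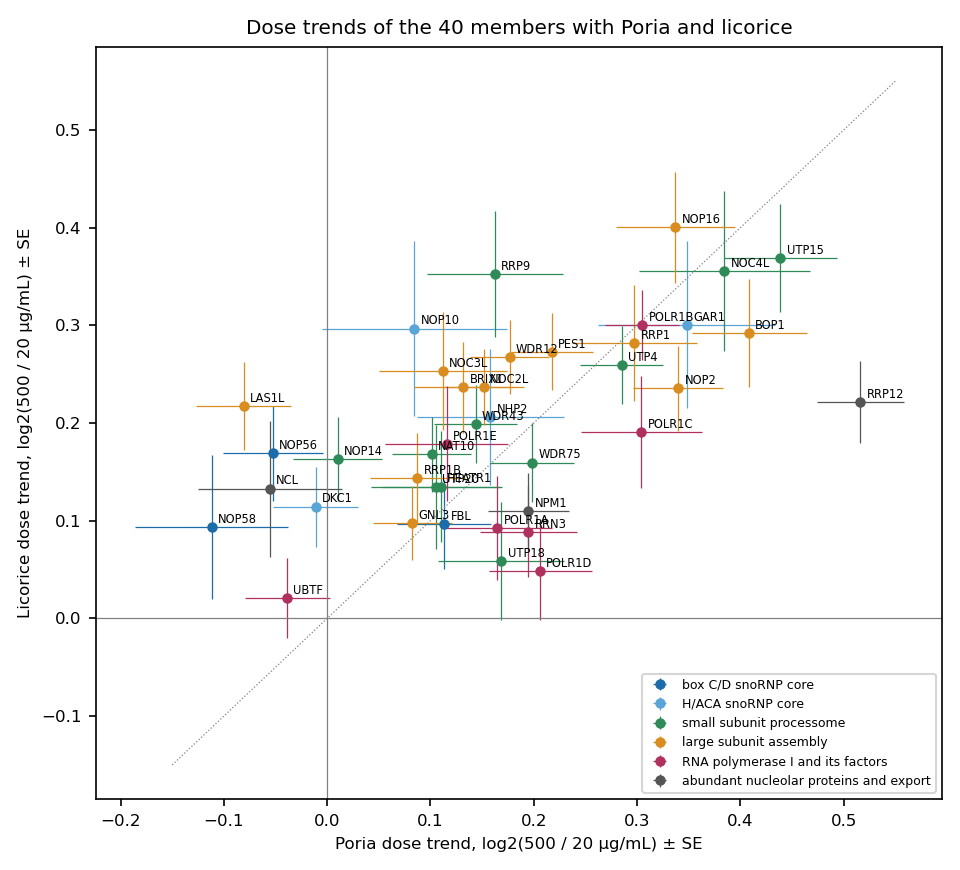
Dose trend, log2 of 500 over 20 µg/mL with its SE, of each member with Poria (horizontal axis) and licorice (vertical axis), coloured by class, with a dotted line where both are equal. Most members lie to the upper right, 6 members (NOP58, LAS1L, NOP56, NCL, UBTF and DKC1) lie left of 0 on the Poria axis and above 0 on the licorice axis, and RRP12 lies farthest right at 0.52.

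Of the members that rose with dose, 20 did so with both extracts, which is 80% of the 25 of Poria and 69% of the 29 of licorice. They include RRP12, BOP1, NOP2, PES1, WDR12, NOC4L, UTP4, UTP15, POLR1B and POLR1C. Licorice had 29 of all 40 members called and Poria 25 of 40, so many shared calls would occur without any relation. The overlap was not tested. Poria alone had 5 (FBL, POLR1A, POLR1D, RRN3 and UTP18), licorice alone had 9 (DKC1, LAS1L, NHP2, NOC3L, NOP10, NOP14, NOP56, POLR1E and RRP1B) and 6 passed in neither (GNL3, HEATR1, NCL, NOP58, UBTF and UTP20). Across the 40 genes the trends correlated with a Pearson r of 0.57 and a Spearman rho of 0.53, as a description, since genes of 1 set of libraries are not independent. The difference between the trends, a comparison added after the data were seen, passed for 3 members while 25.8% of all genes tested passed (13.6% higher with Poria and 12.3% higher with licorice). RRP12 rose more with Poria (0.29, adjusted p = 0.00011), and LAS1L (-0.3, adjusted p = 0.000284) and NOP56 (-0.22, adjusted p = 0.0127) rose more with licorice. On total counts the split was 1 and 14, and 5 members passed without Poria 20 µg/mL replicate 2.

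Many of the other ribosome biogenesis factors rose with these extracts too. Of 51 other ribosome biogenesis factors 38 rose and 1 fell with licorice dose and 35 rose and 1, MPHOSPH10 (-0.34), fell with Poria dose. With licorice PWP2 (0.48), DIMT1 (0.43) and MAK16 (0.42) led, and with Poria RCL1 (0.82), MAK16 (0.5) and NMD3 (0.39). POLR1G, an RNA polymerase I subunit, rose with licorice from 28.7, 23.4 and 23.8 CPM to 36.4, 34.7 and 30.1 CPM (0.41). POLR3G, a form of an RNA polymerase III subunit typical of growing and stem-like cells, rose with both, by 0.64 with licorice and 0.56 with Poria. Of 35 ribosomal proteins 1 rose with licorice (RPL30, 0.18) and 3 with Poria (RPLP2, RPL4 and RPL14, 0.14 to 0.22).

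MYC, the transcription factor named in the background, rose with both extracts. With licorice it stood at 131, 128 and 134 CPM at 20 µg/mL and at 197, 191 and 193 CPM at 500 µg/mL (0.57 ± 0.0541, adjusted p = 6.46e-12), with a mean of 150 ± 2.11 CPM between them at 100 µg/mL. With Poria it stood at 132, 147 and 137 CPM and at 196, 178 and 191 CPM (0.45 ± 0.0542, adjusted p = 1.57e-09). Neither pair of doses overlapped. MYC trends with angelica (0.04) and peony (-0.02) did not pass. Members whose promoter holds CACGTG had a median trend of 0.22 with licorice and 0.13 with Poria (n = 12), against 0.19 and 0.18 for the 23 whose promoter in the table lacks it, and no test was made. The proliferation genes did not move alike: with Poria 9 of 10 fell (median -0.37), and with licorice 1 rose and 1 fell (RRM2 at 0.16 and TOP2A at -0.17). Their summed level was 1960 CPM with Poria and 2570 CPM with licorice at 500 µg/mL, against 2600 CPM in vehicle, so with Poria the members rose while proliferation genes fell.

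**Figure D5:**
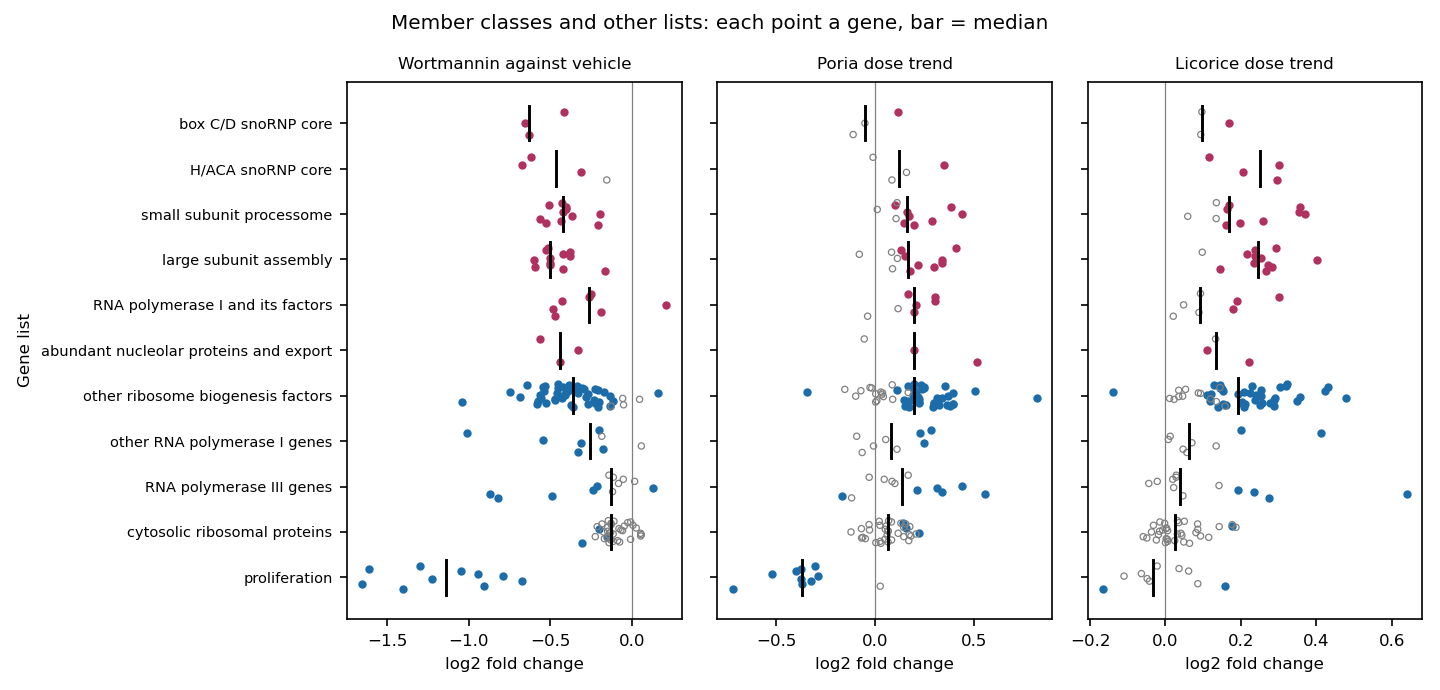
Log2 fold change (horizontal axes) of every gene of the 6 member classes and 5 other lists (vertical axis) with wortmannin against vehicle and in the Poria and licorice dose trends, filled where the adjusted p is under 0.05, open where it is not, with a bar at the list median. With wortmannin the proliferation list has its median at -1.14 and the member classes lie between -0.63 and -0.26, whereas in both trends the ribosomal proteins centre near 0, at 0.06 and 0.02.

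With peony at the top dose many members were lower than in vehicle. Against vehicle 19 fell and 0 rose at 500 µg/mL (median -0.12), with 19.7% of all genes tested passing (9.68% higher and 9.98% lower), and single libraries left out gave 14 to 20 calls. The largest were UTP15 (-0.42), NCL (-0.35), RRP1B (-0.32) and UBTF (-0.25). UTP15 and RRP1B were lower than vehicle in 6 of 6 groups of set 4, all peony doses included, and in 4 of 6 of set 3. NCL was at 1110, 1020 and 1080 CPM at 500 µg/mL, below the 1280 to 1430 CPM of vehicle. NOP56, at 432, 439 and 447 CPM, was also below all vehicle libraries (-0.15, adjusted p = 0.022), but not past the threshold without vehicle replicate 2 (0.102) or peony 500 µg/mL replicate 1 (0.0618). DKC1, at 103, 101 and 99.1 CPM, fell by 0.15 ± 0.0412. POLR1A, at 143, 137 and 137 CPM, fell by 0.24, POLR1B, at 74.4, 75.8 and 72.6 CPM, by 0.19 and UBTF, at 86.5, 84.3 and 82.7 CPM, by 0.25. FBL (0.08), NPM1 (-0.06) and RRN3 (0.06) did not pass.

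Within the peony set the support was thinner. From 20 to 500 µg/mL 2 members fell, NOP16 from 39.8, 44.8 and 37.9 CPM to 35.3, 37.1 and 34.6 CPM (-0.2, adjusted p = 0.0438) and BRIX1, a large subunit factor, from 48.3, 48.1 and 47.8 CPM to 41.8, 41.9 and 44.5 CPM (-0.17, adjusted p = 0.0315). At the same time 3.5% of all genes tested passed (1.8% higher and 1.7% lower). The median member was at -0.11 and 37 of 40 were below 0, against a median of 0 over all genes, and 16 members were lower in all 3 libraries at 500 than in all 3 at 20 µg/mL (9.39% of all genes). The 2 calls became 0 without peony 500 µg/mL replicate 1 or 2 or peony 20 µg/mL replicate 2, 1 without peony 20 µg/mL replicate 1 or peony 500 µg/mL replicate 3, 6 without peony 20 µg/mL replicate 3 and 0 on total counts. Without peony 20 µg/mL replicate 1 neither NOP16 (0.0507) nor BRIX1 (0.0754) passed, so the 1 call there was another member. With no filter, on the compared groups alone or by a regression on log dose, NOP16 (0.0554, 0.0949 and 0.0876) did not pass. Nor did BRIX1 (0.127, 0.116 and 0.112). NOP56, at 497, 517 and 457 CPM at 20 µg/mL, missed the threshold (-0.16, adjusted p = 0.0562). So did UBTF, at 91.1, 92.6 and 94.5 CPM at 20 µg/mL (-0.13, adjusted p = 0.0571), and NCL, at 1180, 1280 and 1250 CPM (-0.21, adjusted p = 0.089). All 3 were lower in each library at 500 µg/mL than in any at 20 µg/mL. They passed under some alternatives: NOP56 (0.0268) and UBTF (0.0397) by DESeq2, NOP56 (0.0405) and UBTF (0.0436) with a mean of at least 1 CPM, NOP56 without peony 20 µg/mL replicate 3 (0.0193), and NCL with no filter (0.00157), on the compared groups alone (0.0217) or by a regression on log dose (0.0393). DKC1 (-0.13), NPM1 (-0.11), FBL (-0.07), POLR1A (-0.06), POLR1B (-0.02) and RRN3 (0.03) did not pass. Of the other ribosome biogenesis factors 3 of 51 fell with dose, MPHOSPH10 (-0.26), PNO1 (-0.2) and NOL11 (-0.12), and of the proliferation genes 3 of 10, by 0.14 to 0.19.

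Atractylodes, ginseng and angelica changed few members with dose. With Atractylodes 0 passed by edgeR or by DESeq2 and 4 were at an unadjusted p under 0.05 (0.0497% of all genes passing, 0.0124% higher and 0.0373% lower). There 39 of 40 members lay above 0, with a median of 0.06, and 16 had all 3 libraries at 500 above all 3 at 20 µg/mL (6.08% of all genes). With ginseng 0 passed by either tool and 1 was at an unadjusted p under 0.05 (0.149% of all genes, 0.0249% and 0.124%; median 0.01). Angelica had 2 rises (1.22% of all genes, 0.534% and 0.684%; median 0.07). NAT10, the enzyme that acetylates cytidines of rRNA, went from 101, 104 and 102 CPM at 20 µg/mL to 119, 113 and 114 CPM at 500 µg/mL (0.18 ± 0.0383, adjusted p = 0.00621). POLR1B went from 76.2, 76.5 and 68.9 CPM to 82.3, 79.5 and 82.6 CPM (0.14 ± 0.0365, adjusted p = 0.0319). Neither gene's groups overlapped, but both calls were lost without angelica 500 µg/mL replicate 1 (adjusted p 0.08 and 0.144), and that of POLR1B also without replicate 2 (0.0519) or 3 (0.158) at 500 or replicate 3 at 20 µg/mL (0.367).

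The members followed across all comparisons stayed close to their 20 µg/mL levels with these 3 extracts. NOP56 ran from 430 to 460 CPM at 20 and from 461 to 474 CPM at 500 µg/mL with Atractylodes (0.07), from 473 to 518 and 481 to 500 CPM with ginseng (0), and from 478 to 516 and 507 to 522 CPM with angelica (0.06). NCL ran from 1220 to 1260 and 1260 to 1380 CPM with Atractylodes (0.1), from 1140 to 1330 and 1100 to 1290 CPM with ginseng (-0.04), and from 1120 to 1230 and 1190 to 1310 CPM with angelica (0.11). None of these differences passed. NPM1 (0.05, 0.01 and 0.07 in the same order), FBL (0.09, -0.02 and 0.1), DKC1 (0.09, -0.05 and 0.05), POLR1A (0.02, 0.01 and 0.12), UBTF (-0.03, 0.04 and 0.07) and RRN3 (0.07, -0.02 and -0.02) did not pass with any of the 3. POLR1B had trends of 0.08 with Atractylodes and 0.01 with ginseng.

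The differences between trends were tested within each set. Poria rose more than Atractylodes for 12 members and less for 0, while 29.5% of all genes passed (15.7% and 13.8%). RRP12 (0.49), NOC4L (0.37), UTP15 (0.36), BOP1 (0.35) and NOP2 (0.3) led these 12. On total counts, where this difference shifts all genes by -0.1, 5 members were higher and 5 lower, among the latter NOP56 (-0.23), DKC1 (-0.21) and NCL (-0.26). Licorice rose more than ginseng for 14 members and less for 0, while 8.79% of all genes passed (4.41% and 4.38%), led by RRP9 (0.43), NOP16 (0.39) and RRP1 (0.34). On total counts these were 17 and 0. Angelica and peony differed for RRP12 (0.26, adjusted p = 0.0183), while 0.926% of all genes passed (0.522% and 0.404%). That call was lost without angelica 20 µg/mL replicate 1, peony 20 µg/mL replicate 2 or peony 500 µg/mL replicate 3, and 4 members passed without angelica 20 µg/mL replicate 3 and 2 without peony 20 µg/mL replicate 3. A joint test of equal trends over the 6 extracts passed for 30 members, against 35.1% of all genes. The 10 that did not pass were FBL, NOP58, NOP10, NOC3L, POLR1A, POLR1E, RRN3, HEATR1, UTP18 and UTP20.

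A few members, singled out with their values known, were lower than vehicle in many groups of sets 3 and 4. UTP15 was lower than vehicle in 10 of the 12 groups of sets 3 and 4 and in 0 of 6 groups of set 2, and RRP1B, a nucleolar protein of late rRNA processing, likewise in 10 of 12 and 0 of 6. At 20 µg/mL UTP15 stood at 32.8, 31.7 and 31 CPM with Poria, overlapping the 32.2, 35.2 and 32.4 CPM of vehicle. With Atractylodes it stood at 31.5, 30.3 and 29.9 CPM, below all vehicle libraries but not past the threshold. It stood at 25.6, 26.9 and 26.1 CPM with ginseng and at 26.3, 29.1 and 25.2 CPM with angelica. With peony it stood at 27.1, 25.7 and 25.8 CPM, and these groups were also below all vehicle libraries. POLR1A was lower in 8 of 12, NOP14 in 7 and POLR1B in 6 of 12 groups of those sets, and 0 of 6 in set 2. Within set 3, licorice at 500 µg/mL had UTP15 (0.16) and POLR1B (0.21) higher than vehicle. A difference between the sets cannot be told apart from these calls.

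At most doses of ginseng, angelica and peony, more members were called lower than vehicle than higher. Ginseng at 500 µg/mL had 1 member higher and 5 lower, while 4.66% of all genes were higher and 5.58% lower (10.2% in all). At 100 µg/mL it had 0 higher and 7 lower (4.13% and 4.4% of all genes, 8.53% in all), and at 20 µg/mL 0 and 7 (6.71% and 7.15%, 13.9% in all). Angelica at 500 µg/mL had 4 higher and 3 lower (9.51% and 9.42%, 18.9% in all). At 100 µg/mL it had 2 and 4 (6.97% and 7.64%, 14.6% in all), and at 20 µg/mL 2 and 10 (12.1% and 12.2%, 24.3% in all). Peony at 100 µg/mL had 0 and 2 (4.78% and 5.26%, 10% in all). At 20 µg/mL it had 1 and 9 (7.57% and 8.2%, 15.8% in all). The counts called lower were near the share of all genes with angelica at 500 and 100 µg/mL and with peony at 100 µg/mL. Atractylodes had 0 called at 500 µg/mL by edgeR and by DESeq2, with 3 at an unadjusted p under 0.05 (0.559% and 0.329% of all genes, 0.889% in all), and 1 without its replicate 1. At 100 µg/mL it had 1, NOC3L at 0.26 (0.87% and 0.478%, 1.35% in all), and at 20 µg/mL 0 by either tool, with 10 at an unadjusted p under 0.05 (0.82% and 0.261%, 1.08% in all). At 20 µg/mL 17 members had all 3 libraries below all 3 vehicle libraries and 0 had them above. Of all genes tested 8.58% were lower and 9.26% higher in this way.

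Of the genes given in each comparison, POLR1A (-0.18) and POLR1B (-0.15) were lower than in vehicle with ginseng at 500 µg/mL. With angelica at 500 µg/mL POLR1A was lower (-0.16), and FBL (0.21) and NPM1 (0.13) were higher. These differences cannot be told apart from a difference between sets or in DMSO. The POLR1A call was lost with ginseng without vehicle replicate 2 or 3 or ginseng 500 µg/mL replicate 2 or 3 (adjusted p 0.0646 to 0.115). It was lost with angelica without any of its 3 libraries or vehicle replicate 2 or 3 (0.0641 to 0.106), and the NPM1 call was lost without angelica 500 µg/mL replicate 1 (0.0771). Between 1 and 5 single libraries moved most of these counts by more than 1.5 times. For ginseng at 100 µg/mL they ran from 2 without its replicate 2 to 12 without its replicate 1, and were 4 without vehicle replicate 2 or 3 and 3 without its replicate 3. Angelica at 500 µg/mL had 4 without vehicle replicate 3 or its replicate 2, angelica at 100 µg/mL 3 without any vehicle library or its replicate 1, angelica at 20 µg/mL 7 without its replicate 3, and peony at 20 µg/mL 4 without vehicle replicate 3 or its replicate 2. The NOC3L call with Atractylodes was lost without vehicle replicate 3 or replicate 2 or 3 of that group.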

How the data were processed

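Gene expression was measured in 60 libraries of HepG2. Per the labels' protocols, libraries came from a directional kit and were read as pairs of 100 bases on an MGI instrument. Per the submitters' processing notes the tools were FastQC 0.11.9, Trim Galore 0.6.5, STAR 2.7.3a and RSEM 1.3.3 and the build was hg38. The annotation release is not given in the sources used here. The authors deposited RSEM expected counts per gene, of which 76.1% of values above 0 are whole, and these were rounded to whole counts. RSEM shares reads among similar sequences, so counts of close copies depend on each other. Of 270 columns 60 were used, and 210 columns were not used here.

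Symbols, coordinates on GRCh38 and small nucleolar RNA genes came from GENCODE v29. Groups follow the labels. The fit took in every library at once, with a mean for each group, and used edgeR 4.0.16 on R 4.3.3 (with limma 3.58.1), TMM factors, filterByExpr (minimum count 10, minimum total 15), a prior count of 0.125 and glmQLFTest, with Benjamini-Hochberg adjustment within each of 42 comparisons at 0.05. The fit had 40 residual and 8.2 prior degrees of freedom, and it was tested on simulated data. The members and lists were chosen with earlier results of these data known. All 40 members may be named. By rule, values are given for up to 4 largest rises and falls past the threshold in the wortmannin comparison and each trend, for NOP56, FBL, DKC1, POLR1A, POLR1B, UBTF, RRN3, NPM1 and NCL, and for MYC and up to 3 genes of each other list. NOP10, NOP58, GAR1, NOC3L, UTP15 and RRP1B, where given outside that rule, were singled out with their values known. Alternatives tried were plain total counts, size factors of DESeq2 1.42.0, its Wald test (and for the joint test its likelihood ratio test), a mean of at least 1 CPM, no filter, fits on the compared groups alone, a regression on log dose, a block for the replicate number, and fits without each library in turn.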

Additional observations from a re-analysis of the deposited data

Results flagged for a closer look

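The dose trends of the 6 extracts differed by a direct test. The joint test of equal trends passed for 30 of the 40 members, while 35.1% of all genes tested passed. Between extracts of 1 set, the Poria trend exceeded the Atractylodes trend for 12 members, while 29.5% of all genes passed and 15.7% were higher. On total counts 5 members were higher and 5 lower. The licorice trend exceeded the ginseng trend for 14, while 8.79% of all genes passed and 4.41% were higher. Angelica and peony differed for 1, RRP12, while 0.926% of all genes passed.

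Of the genes given in every comparison, 6 had unequal trends over the extracts (edgeR's quasi-likelihood test, Benjamini-Hochberg adjusted over all genes tested). The adjusted p was 1.07e-07 for POLR1B, 0.000394 for NPM1, 0.00253 for NOP56, 0.00462 for DKC1, 0.0237 for NCL and 0.0418 for UBTF. The calls of NCL and UBTF were lost when single libraries were left out: NCL without peony 500 µg/mL replicate 2 (0.0749) or peony 20 µg/mL replicate 2 (0.0616) or 3 (0.0533), and UBTF without any of 17 libraries, with adjusted p up to 0.119.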

How the results depend on the processing

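Counts of members called kept within 1.5 times of their main value under each alternative that left out no library, except as follows and, for the last 2 results named, with the replicate block given below. The angelica trend (2) had 1 call on total counts and 0 with no filter, with only the libraries compared or with a regression on log dose. The peony trend (2) had 0 calls on total counts, 1 with no filter, with only the libraries compared or with the regression, 6 with a mean of at least 1 CPM, and 7 with the DESeq2 Wald test. The 1 call with no filter, with only the libraries compared or with the regression was NCL, not NOP16 or BRIX1. The difference between angelica and peony (1) had 0 calls on total counts or with only the libraries compared and 9 with the DESeq2 Wald test. These statements cover wortmannin and the 500 µg/mL groups against vehicle, the 6 trends, the differences within sets and the joint test. The median of the members from 100 to 500 µg/mL of Poria was 0.03 and on total counts -0.00. The cause was not tested.

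Leaving out each library in turn gave 39 to 40 calls for wortmannin. Against vehicle at 500 µg/mL it gave 21 to 27 for Poria, 0 to 1 for Atractylodes, 25 to 30 for licorice, 4 to 8 for ginseng, 4 to 9 for angelica and 14 to 20 for peony. For the trends it gave 20 to 25 for Poria, 0 for Atractylodes and ginseng, 23 to 29 for licorice, 0 to 2 for angelica and 0 to 6 for peony. For the differences it gave 8 to 14 (Poria and Atractylodes), 12 to 15 (licorice and ginseng) and 0 to 4 (angelica and peony), and for the joint test 27 to 32.

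The labels do not say that the replicate numbers pair libraries. Over 9307 genes, same-numbered deviations correlated between -0.33 and 0.51, and in each comparison at least 1 pair was at or under 0.1. Among the pairs of groups, Poria and Atractylodes at 500 µg/mL (0.48, 0.24 and 0.26), the same extracts at 20 µg/mL (0.28, 0.24 and 0.31) and licorice and ginseng at 500 µg/mL (0.51, 0.30 and 0.21) had all 3 pairs over 0.1. Of 60 libraries 27 correlated best with their own number among the 3, a count that alone does not settle pairing. The numbers were not used as pairs, because the labels give no pairing and each comparison had a pair at or under 0.1. With the replicate number as a block the peony trend had 5 calls, the difference between angelica and peony 3, the Poria trend 25, the licorice trend 29, the difference between Poria and Atractylodes 12, that between licorice and ginseng 14, and wortmannin 39. In the peony trend UBTF (0.0427) and NCL (0.0421) then passed.

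There are 3 libraries a group. Each member had at least 281 counts in every library.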

Other observations

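Of 10 genes of the network of MYC, its relatives, partners and antagonists, 6 rose and 1 fell with wortmannin (median 0.19), while 46.3% of all genes tested passed, and MYC itself did not pass. MXD4, an antagonist of MYC, rose by 0.53 (log2, adjusted p = 2.55e-12, edgeR's quasi-likelihood test) and MXI1, another antagonist, by 0.42, while MXD3 fell by 0.63. MYCL, a relative of MYC, stood at 1.05, 1.01 and 0.83 CPM in vehicle and at 2.26, 2.88 and 2.15 CPM with wortmannin, a rise of 1.34. From 20 to 500 µg/mL of licorice, MYCN, a further relative, went from 5.35, 5.49 and 5.66 CPM to 3.09, 2.66 and 2.44 CPM (-1 on the log2 scale) and MXD4 fell by 0.39. With Poria MXD1 rose by 0.68 and MYCN fell by 0.44. Neither the MYCL nor the MYCN groups overlapped.

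Many cytosolic ribosomal proteins were higher with angelica than in vehicle. Of 35 tested, 21 rose and 0 fell against vehicle at 500 µg/mL (median 0.20), while 9.51% of all genes were higher and 9.42% lower. At 100 µg/mL 9 rose (median 0.15, with 6.97% of all genes higher and 7.64% lower). At 20 µg/mL 21 rose (median 0.19, with 12.1% of all genes higher and 12.2% lower). In the angelica trend 0 passed by edgeR, with 0 at an unadjusted p under 0.05 (median 0.01, with 1.22% of all genes passing). Values of peony, from the same set, are not given here. RPS19, of the small subunit, stood at 507, 474 and 419 CPM in vehicle and at 540, 653 and 557 CPM with angelica at 500 µg/mL (0.32, adjusted p = 0.0159). RPL30, of the large subunit, stood at 394, 379 and 371 CPM and at 457, 475 and 472 CPM (0.30, adjusted p = 0.00105). All 3 angelica libraries were above all 3 vehicle libraries for both genes. These comparisons cannot be told apart from a difference between sets.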
